A study of Mus musculus with 15 samples.

Results

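The 43 genes described here encode the machinery that copies nuclear DNA. They were chosen by gene symbol from a list that uses no measured value, though it was drawn up with earlier results of these data known, as the named subunits of the origin recognition complex, the licensing factors, the MCM2-7 helicase and its activators, the replicative polymerases, the clamp and clamp loader, the single-strand binding protein RPA, the enzymes that join Okazaki fragments, and 3 enzymes of nucleotide supply. All 43 were found among the 20910 genes of the mRPE count table and among the 25038 genes of the RPE/choroid count table, and all 43 passed the filter on low counts (at least 5 counts in at least 3 libraries) in both.

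Replication is prepared in G1, when the origin recognition complex, with the loaders CDC6 and CDT1, places inactive MCM2-7 helicases on DNA, a step called licensing. In S phase CDC45 and GINS turn each MCM2-7 ring into an active helicase, polymerase alpha with primase lays down primers, and polymerases epsilon and delta extend the strands with the PCNA clamp, which the RFC complex loads. Many of these genes are transcribed under E2F factors as cells pass from G1 into S, and the retinal pigment epithelium (RPE), the pigmented cell layer behind the photoreceptors, is a mostly non-dividing tissue in the adult eye.

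The study asked what loss of Prom1, which encodes the membrane glycoprotein prominin-1, does to the RNA of mouse RPE cells. Bulk RNA-seq was analysed in 15 libraries, of which 9 were of cultured mRPE cells and 6 of RPE/choroid tissue. The mRPE cells were isolated from C57BL/6J mice aged 8 to 12 weeks, pooled, and immortalised with a lentivirus carrying HPV E6/E7, so WT, KO22 and KO26 cells all share these viral genes. The E7 protein binds the RB family proteins that hold E2F back, the E6 protein binds p53, and cells immortalised in this way keep dividing in culture, unlike resting RPE. The KO22 (3 libraries) and KO26 (2 libraries) groups are 1 Prom1-KO line each, made by Cas9 from a lentivirus and a guide RNA against Prom1 exon 5, and the labels do not say whether the 4 WT libraries come from cells with Cas9 or with a scrambled guide. The tissue groups hold 3 libraries of WT and 3 labelled Prom1-KO, from a cross of Prom1 fl/fl with RPE65-Cre mice given tamoxifen by gavage. By this design Cre is meant to act in RPE only, and choroid cells in the same tissue would keep the gene. Whether and in which cells Prom1 was removed was not tested. The age, the alleles of the WT mice and the number of animals per library are not stated in the sources used here. Replicates are separate libraries of a group, and since nothing says that they came from separate cultures or animals, the p-values measure the spread between libraries only.

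The mRPE libraries belong to 2 sequencing batches, named 8995 and 9262 after the library names. Replicate 1 of WT, KO22 and KO26 is of batch 8995 and every other mRPE replicate is of batch 9262, so values of an mRPE group are given below with the batch 8995 library first. Total counts ran from 8076188 to 27537863 in mRPE and from 48154444 to 61766179 in RPE/choroid, and the lowest count of any of the 43 genes in any library was 16. The study's own analysis left out the 2 KO26 libraries, which stayed outliers in its principal component analysis after batch correction. The paper proposes biological heterogeneity or a technical anomaly as the reason. Both libraries are used here. Of 12 RPE markers 3 were in the mRPE table (Rpe65 and Rlbp1 are among those that are not) against 12 in the tissue table. The values of Prom1 itself in mRPE are not reported here. In tissue Prom1 stood at 48.7, 49.6 and 53.3 CPM (counts scaled to a common library depth after TMM) in WT and at 49.9, 48.1 and 35.5 CPM in the libraries labelled Prom1-KO, where the third library also had the largest mitochondrially encoded share (84.2% of counts, against 64.9% to 71.3% in the other tissue libraries).

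Replication genes were higher in both Prom1-KO lines than in WT mRPE, by about 3.68-fold in KO22 and 2.01-fold in KO26 at the median, and the gap between the lines was wider in batch 9262 than in batch 8995. In KO22, 33 of the 43 genes passed both limits of the study (adjusted p under 0.05 and a log2 fold change over 1.2), beside 11.4% of all 20455 genes tested, and 41 rose at an adjusted p under 0.05, beside 26.9%. None of the 43 fell, also at an unadjusted p under 0.05, beside 26.1% of all genes that fell at an adjusted p under 0.05. The median of the 43 genes was a log2 fold change of 1.88, or 3.68-fold, against -0.03 over all genes tested. Of the 43, 42 were positive, beside 9946 of all 20455 genes. In 39 of the 43 genes every KO22 library lay above every WT library, beside 24.8% of all genes, and the other 4 (Orc4, Orc5, Rfc1 and Rpa3) overlapped. All tests across genes are edgeR's quasi-likelihood test, in mRPE with a batch term, with p-values adjusted by Benjamini-Hochberg over all genes, and the standard errors of the 43 log2 fold changes ran from 0.10 to 0.36 in KO22. Bulk RNA gives an average over cells, so fewer cells of a type and less RNA per cell cannot be told apart, and likewise more cells in S phase and more RNA in each of them.

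In KO26, 9 of the 43 genes passed both limits, beside 1.21% of 20737 genes tested, and 15 rose at an adjusted p under 0.05, beside 2.36%. None fell, also at an unadjusted p under 0.05, beside 1.13% of all genes at the adjusted limit. The median was 1.01 on the log2 scale, or 2.01-fold, against 0.03 over all genes. Of the 43, 40 were positive, beside 10790 of all 20737 genes. At an unadjusted p under 0.05, 36 were higher, beside 2292 of all 20737 genes. Both KO26 libraries lay above every WT library in 34 genes, beside 11.9% of all genes, both lay below in 1 (Orc5), and 8 overlapped. Standard errors were wider here (0.12 to 0.47), from a fit over WT, KO22 and KO26 in which KO26 has 1 library in each batch. What widened them was not tested. The count that passed both limits rested on single libraries: it was 0 without KO26 replicate 1, 1 without WT replicate 2, 3 or 4, and 20 without KO26 replicate 2. The 2 lines were compared with the same WT libraries, so their fold changes are not independent.

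**Figure D1:**
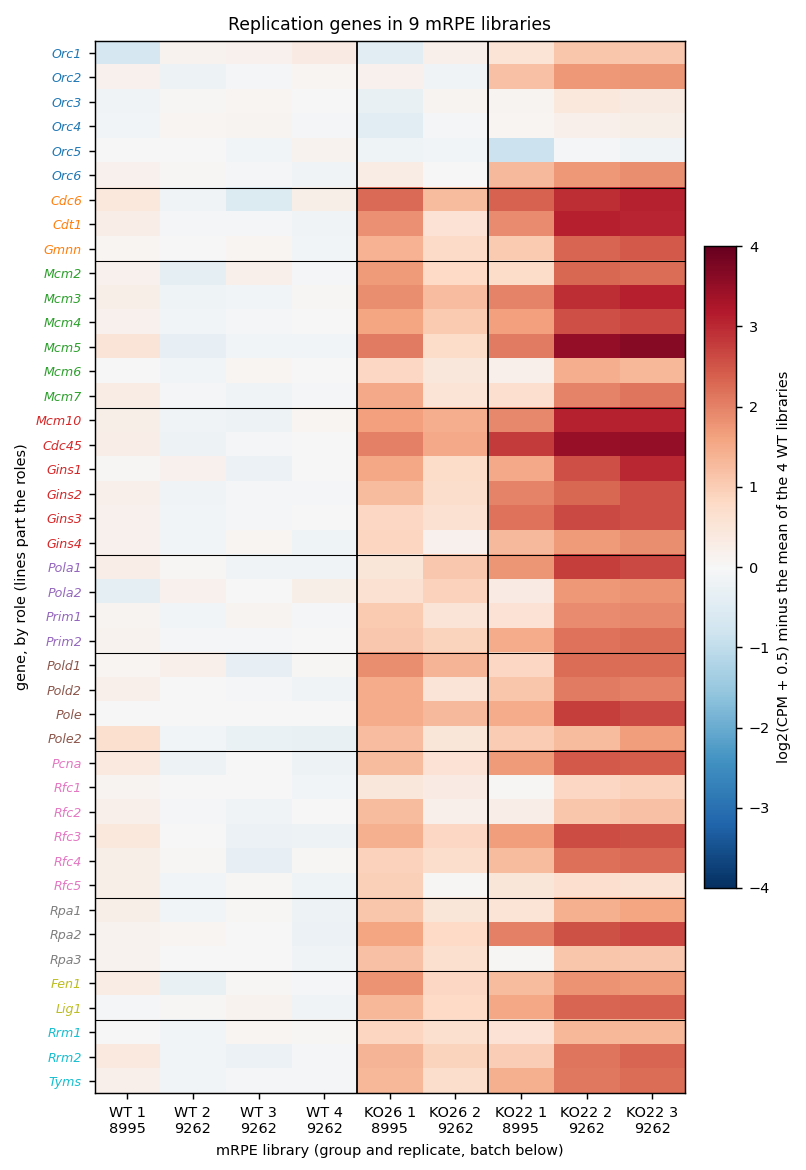
Level of each of the 43 genes (rows, by role) in each of the 9 mRPE libraries (columns, with the batch under each name), as log2(CPM + 0.5) minus the mean of the 4 WT libraries, on a colour scale from -4 to 4. The 2 KO22 libraries of batch 9262 are the deepest red columns, KO22 of batch 8995 and the KO26 libraries are paler, and the rows of the origin recognition complex stay near white in KO26.

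A window around each start site, from 250 bases before to 50 after the start of the canonical transcript, was read from GRCm39 (the same assembly as mm39) with the GENCODE vM39 annotation, since the 43 genes moved together in KO22. The letters searched were TTTCCCGC, TTTCGCGC, TTTGCCGC and TTTGGCGC, spellings of the E2F motif, on either strand, with overlapping matches counted as 1 site. A match was present in 14 of the 43 windows (32.6%), against 613 of 21751 protein-coding promoters (2.82%), and 4 of the 43 held 2 or more separate sites (9.30%), against 23 (0.106%). CCAAT, the NF-Y box, was in 26 of the 43 (60.5%, against 39.9% of all promoters), and TTTGAA, a core of the CHR element of mitotic genes, in 3 (6.98%, against 17.1%). The E2F words were not particular to the 43, with 21.4% among the 42 further replication genes described below. The 17 genes of G2 and mitosis, which also rose in KO22, had them in 5.88%, CCAAT in 88.2% and TTTGAA in 52.9%. Such matches are letters in a window and not measured binding. The stretches shown are of the 4 MCM2-7 subunits with a match, the loaders Cdc6 and Cdt1, and Gins1, Pola1 and Orc3, whose fold changes in KO22 ran from large to small. The other 5 genes with a match (Orc1, Gmnn, Pole, Pole2 and Rfc3) are not shown. Capitals mark the matches, each sequence reads 5′ to 3′ on the gene's own strand, and positions count from the start site.
Mcm5 (chr8:75835980-75836139, + strand, bases -160 to -1): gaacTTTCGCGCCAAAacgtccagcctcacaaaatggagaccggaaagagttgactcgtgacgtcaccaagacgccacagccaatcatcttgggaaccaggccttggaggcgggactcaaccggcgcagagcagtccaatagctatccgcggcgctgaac
Mcm6 (chr1:128287517-128287612, - strand, bases -160 to -65): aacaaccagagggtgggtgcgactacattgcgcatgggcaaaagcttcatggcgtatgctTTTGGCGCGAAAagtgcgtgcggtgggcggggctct
Mcm4 (chr16:15455265-15455424, - strand, bases -160 to -1): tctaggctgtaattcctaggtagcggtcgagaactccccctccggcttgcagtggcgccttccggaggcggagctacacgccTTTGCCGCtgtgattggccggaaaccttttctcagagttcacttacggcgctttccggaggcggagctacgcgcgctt
Pola1 (chrX:92675814-92675973, - strand, bases -160 to -1): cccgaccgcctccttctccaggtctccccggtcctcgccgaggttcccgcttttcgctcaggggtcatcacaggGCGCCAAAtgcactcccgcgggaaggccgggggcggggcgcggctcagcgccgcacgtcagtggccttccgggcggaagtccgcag
Orc3 (chr4:34614958-34615107, - strand, bases -160 to -11): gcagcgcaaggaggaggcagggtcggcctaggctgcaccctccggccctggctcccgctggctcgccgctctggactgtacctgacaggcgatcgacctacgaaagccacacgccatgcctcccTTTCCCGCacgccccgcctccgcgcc
Mcm3 (chr1:20890490-20890519, - strand, bases 18 to 47): tgGCGGGAAAacttgggaagtTTTGGCGCc
Cdc6 (chr11:98798647-98798676, + strand, bases 21 to 50): gaaggctgaagtagagcggcTTTGGCGCga
Cdt1 (chr8:123294768-123294797, + strand, bases 21 to 50): atccgcgggaactaccttTTTGGCGCcatg
Gins1 (chr2:150751496-150751525, + strand, bases 11 to 40): ttgagcctaTTTGGCGCCAAAgcgaggagc
In Mcm5, Mcm6 and Gins1 the capitals are 2 overlapping words on opposite strands, counted as 1 site, and in Mcm3 they are 2 separate sites. A further site lies outside the stretch shown in Mcm6 (bases -37 to -30) and in Mcm4 (bases -224 to -217).

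Members with and without a match both had positive medians. For the 14 genes with a match the median was 2.36 (log2) in KO22 and 1.31 in KO26, and for the 29 without it was 1.68 and 1.00. The range in KO22 was 0.31 to 3.18 with a match and -0.32 to 3.37 without. Orc3, with a match 29 to 36 bases before its start, had one of the smallest fold changes of the 43 in KO22, and Cdc45, with the largest, held none of these letters in its window.

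Origin recognition complex genes, whose proteins mark the sites where replication can begin, rose in KO22 while none passed the test in KO26. In KO22, 4 of 6 passed (Orc1, Orc2, Orc3 and Orc6), with log2 fold changes over the 6 from -0.32 to 1.66. In KO26 the log2 fold changes of the 6 ran from -0.21 to 0.16. Orc6, whose product joins the core complex during helicase loading, was at 24.4, 22.2, 20.4 and 19.5 CPM in WT, at 53.8, 72.4 and 79.3 CPM in KO22, and at 26.8 and 21.5 CPM in KO26. Every KO22 library stood above the WT and KO26 libraries, which overlapped each other, with log2 fold changes of 1.66 ± 0.15 (SE, adjusted p = 2.29e-05) in KO22 and 0.16 ± 0.19 (adjusted p = 0.672) in KO26. Orc5, a core subunit that binds ATP, was at 26.3, 26.1, 24.8 and 29.5 CPM in WT, at 14.6, 25.9 and 23.9 CPM in KO22, and at 23.5 and 24.8 CPM in KO26. The low value was KO22 of batch 8995, the other KO22 libraries overlapped WT, and Orc5 was the only member with a negative log2 fold change in KO22 (-0.32 ± 0.16, adjusted p = 0.129). Set against each other, KO22 was higher than KO26 at an adjusted p under 0.05 in Orc1, Orc2, Orc4 and Orc6, with a log2 fold change of 1.57 ± 0.23 (adjusted p = 0.00049) for Orc2.

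Licensing factors rose in KO22 in 3 of 3 genes, from 2.09 to 2.85 on the log2 scale. Cdc6, the ATPase that helps load the helicase, was at 7.39, 4.87, 3.54 and 6.39 CPM in WT, at 29.8, 44.6 and 48.6 CPM in KO22, and at 27.4 and 13.7 CPM in KO26. Each KO library exceeded each WT library, with log2 fold changes of 2.85 ± 0.26 (adjusted p = 2.07e-05) in KO22 and 1.79 ± 0.33 (adjusted p = 0.0193) in KO26. Gmnn, which encodes geminin, the inhibitor that binds CDT1 after S phase has begun, was at 6.40, 5.96, 6.38 and 5.53 CPM in WT, at 13.1, 32.2 and 35.7 CPM in KO22, and at 16.7 and 10.6 CPM in KO26. Again the KO libraries did not overlap WT. The transcript of this CDT1 inhibitor stood higher by 2.09 ± 0.26 on the log2 scale (adjusted p = 0.000132) in KO22 and 1.27 ± 0.35 (adjusted p = 0.0816) in KO26. Cdt1 itself had log2 fold changes of 2.79 ± 0.26 (adjusted p = 2.86e-05) in KO22 and 1.36 ± 0.40 (adjusted p = 0.0939) in KO26.

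The helicase subunits Mcm2 to Mcm7 rose in KO22 in 6 of 6 genes, with 5 over the limit of 1.2, and in KO26 in 2 of 6 (Mcm3 and Mcm4). Mcm5, which forms the gate of the ring with Mcm2, had the largest fold change of the 6 in KO22. Its levels were 18, 9.74, 11.4 and 11.5 CPM in WT, 53.5, 147.5 and 159.3 CPM in KO22, and 53.5 and 20.7 CPM in KO26. All KO libraries were above WT, yet the 2 lines had the same level in batch 8995 and stood far apart in batch 9262, and the log2 fold changes against WT were 3.18 ± 0.36 (adjusted p = 8.52e-05) in KO22 and 1.48 ± 0.47 (adjusted p = 0.113) in KO26. Mcm6 had the smallest fold change of the 6, with 90.9, 84.0, 95.0 and 89.3 CPM in WT, 103.6, 245.7 and 225.2 CPM in KO22, and 158.8 and 123.9 CPM in KO26. KO22 of batch 8995 lay just over the WT range and under both KO26 libraries, and the fold change in KO22 was 1.05 ± 0.20 on the log2 scale (adjusted p = 0.00195), against 0.74 ± 0.27 (adjusted p = 0.159) in KO26.

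Mcm3 was at 31.3, 23.3, 24.5 and 27.0 CPM in WT, at 104.6, 208.8 and 232.8 CPM in KO22, and at 97.2 and 62.1 CPM in KO26. Mcm4 was at 28.1, 23.2, 24.4 and 24.8 CPM in WT, at 79.2, 152.7 and 161.9 CPM in KO22, and at 76.0 and 52.9 CPM in KO26. In both genes the KO libraries lay well clear of WT, and the KO26 library of batch 8995 was nearly level with KO22 of the same batch. The fold changes were 6.69 and 5.11 in KO22 and 3.03 (adjusted p = 0.0196) and 2.62 (adjusted p = 0.0207) in KO26.

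Since the 6 proteins form a ring with 1 copy of each, their transcript levels were also set side by side as CPM per kb of the canonical transcript. In WT mRPE the highest level (Mcm6, 30.2 CPM per kb) was 11 times the lowest (Mcm5, 2.75). In KO22 the ratio was 3.31, from Mcm6 at 64.5 to Mcm2 at 19.5 CPM per kb, and in KO26 it was 5.90. Mcm5, the lowest of the 6 in WT, had the largest fold change in KO22, and Mcm6, the highest, had the smallest. For RPA the same ratio was 3.78 in WT, 1.41 in KO22 and 3.02 in KO26, and for GINS it was 6.41, 3.46 and 5.53. The clamp loader did not follow this, with ratios of 3.58 in WT, 3.84 in KO22 and 2.66 in KO26, and polymerase alpha with primase was level (2.43, 2.31 and 2.45). These ratios are of group means over genes and were not tested.

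**Figure D2:**
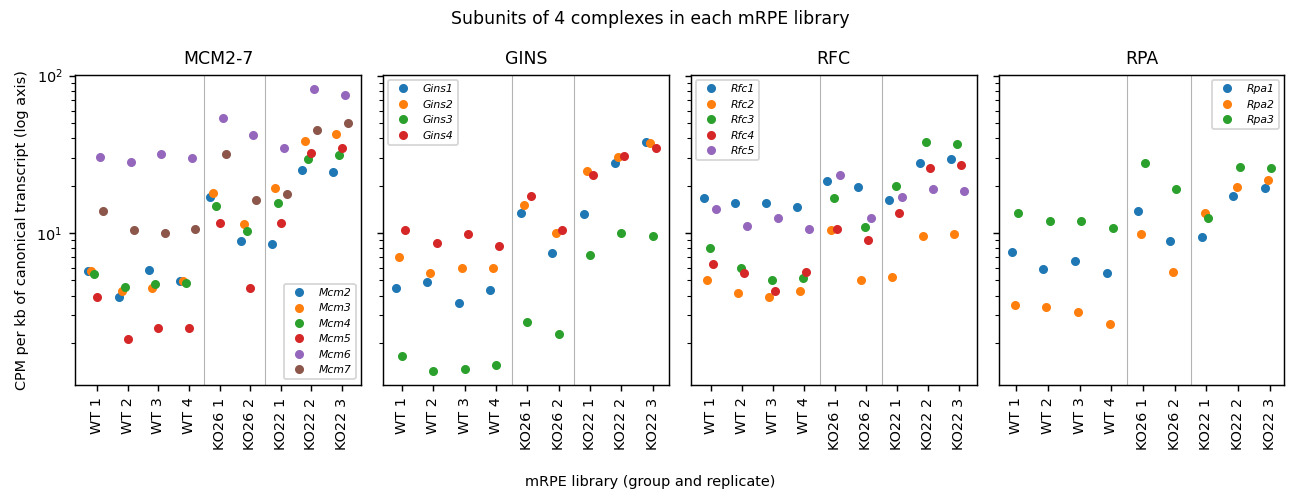
CPM per kb of canonical transcript (log axis) of each subunit of MCM2-7, GINS, RFC and RPA in the 9 mRPE libraries, 1 point a library, with replicate 1 of each group from batch 8995. The MCM2-7 points span 11-fold between group means in WT and 3.31-fold in KO22, with Mcm6 on top throughout, and the RPA points close up from 3.78-fold to 1.41-fold.

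Genes for the factors that turn the loaded ring into a helicase rose in KO22 in 6 of 6 cases, all over 1.2 on the log2 scale, and in KO26 in 3 of 6 (Mcm10, Cdc45 and Gins2). Cdc45 (chr16:18599195-18631551), the helicase's essential cofactor, had the largest fold change of the 43 genes in both lines. It was at 6.99, 5.00, 5.60 and 5.67 CPM in WT, at 43.4, 69.3 and 71.5 CPM in KO22, and at 24.9 and 17.4 CPM in KO26. No library of a KO line came near the WT range, KO22 lay above KO26 throughout, and the folds against WT were 10.4 in KO22 (log2 3.37 ± 0.20, adjusted p = 2.17e-06) and 3.61 in KO26 (1.85 ± 0.25, adjusted p = 0.00749).

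Mcm10, a factor needed to start unwinding, was at 13.1, 10.0, 9.43 and 11.7 CPM in WT, at 43.4, 97 and 97 CPM in KO22, and at 35.0 and 31.2 CPM in KO26. The KO26 libraries of the 2 batches were alike for this gene, with a log2 fold change of 1.62 ± 0.28 (adjusted p = 0.0166), and in KO22 it was 2.79 ± 0.25 (adjusted p = 2.26e-05). Gins2 was at 27.5, 21.7, 23.3 and 23.3 CPM in WT, at 96.3, 118.5 and 146.3 CPM in KO22, and at 58.7 and 39.1 CPM in KO26, so that the 3 groups did not overlap (2.32 ± 0.16, adjusted p = 4.18e-06, in KO22 and 1.00 ± 0.21, adjusted p = 0.0291, in KO26). Gins4, which had the smallest change of the 6, was at 15.3, 12.6, 14.2 and 12.0 CPM in WT, at 33.7, 45.0 and 50.3 CPM in KO22, and at 25 and 15.3 CPM in KO26. Here KO22 was clear of WT (1.67 ± 0.16, adjusted p = 3.36e-05), while KO26 of batch 9262 sat at the top of the WT range (0.55 ± 0.24, adjusted p = 0.225).

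Primer synthesis genes rose in KO22 in 4 of 4 cases and in KO26 in 2 of 4 (Pola2 and Prim2). Pola1, the catalytic subunit of polymerase alpha and an X-linked gene, was at 37.8, 32.4, 28.4 and 28.9 CPM in WT, at 108.2, 216.9 and 200.3 CPM in KO22, and at 44.3 and 66.7 CPM in KO26. KO22 lay above KO26 and KO26 above WT, and, unlike most members, KO26 was lower in batch 8995 than in batch 9262. The log2 fold changes were 2.43 ± 0.22 (adjusted p = 2.11e-05) in KO22 and 0.83 ± 0.24 (adjusted p = 0.0929) in KO26. Pola2, its regulatory subunit, was at 12.8, 18.9, 16.6 and 19.7 CPM in WT, at 21.1, 57.4 and 60.0 CPM in KO22, and at 25.9 and 32.4 CPM in KO26. Both lines were above WT, KO22 of batch 8995 only just, by 1.41 ± 0.18 (adjusted p = 0.000163) in KO22 and 1.00 ± 0.23 (adjusted p = 0.0422) in KO26. Prim2, the large primase subunit, was at 22.0, 19.1, 19.3 and 20.1 CPM in WT, at 57.7, 92.2 and 95.6 CPM in KO22, and at 43.3 and 37.9 CPM in KO26. The 3 groups again did not overlap, with log2 fold changes of 2.01 ± 0.16 (adjusted p = 1.22e-05) in KO22 and 1.05 ± 0.20 (adjusted p = 0.0201) in KO26.

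The polymerases that extend both strands rose in KO22 in 4 of 4 genes and in KO26 in Pole and Pold1. Pole, the catalytic subunit of the leading-strand polymerase epsilon, was at 27.8, 27.3, 27.0 and 27.9 CPM in WT, at 77.6, 190.5 and 172.6 CPM in KO22, and at 77.4 and 68.6 CPM in KO26. WT was nearly constant and every KO library lay above it, by 2.37 ± 0.21 (adjusted p = 1.96e-05) in KO22 and 1.51 ± 0.26 (adjusted p = 0.0149) in KO26. Pold1, the catalytic subunit of the lagging-strand polymerase delta, was at 5.56, 6.17, 4.12 and 5.53 CPM in WT, at 9.77, 26.7 and 26.6 CPM in KO22, and at 20.7 and 14.5 CPM in KO26. Here KO22 of batch 8995 was the lowest KO library, and the log2 fold changes of the lines were close (1.90 ± 0.28, adjusted p = 0.000365, in KO22 and 1.81 ± 0.36, adjusted p = 0.0244, in KO26). The difference between the lines for Pold1 was 0.12 ± 0.39 (adjusted p = 0.836). Pole2, the second subunit of polymerase epsilon, was at 8.46, 4.87, 4.32 and 4.16 CPM in WT, at 11.2, 13.3 and 17.6 CPM in KO22, and at 13 and 7.52 CPM in KO26, where KO26 overlapped WT through the high WT library of batch 8995. Its log2 fold change was 1.37 ± 0.27 (adjusted p = 0.00204) in KO22 and 0.80 ± 0.31 (adjusted p = 0.187) in KO26.

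Clamp and clamp loader genes rose in KO22 in 6 of 6 cases, with 3 over 1.2 (Pcna, Rfc3 and Rfc4), and in KO26 in none, where the log2 fold changes ran from 0.45 to 1.16. Rfc3, a small subunit of the loader, was at 10.7, 7.88, 6.58 and 6.82 CPM in WT, at 26.2, 50.1 and 48.6 CPM in KO22, and at 22.1 and 14.3 CPM in KO26. All KO libraries exceeded WT, by 2.35 ± 0.26 (adjusted p = 6.45e-05) in KO22 and 1.16 ± 0.31 (adjusted p = 0.0687) in KO26. Rfc5, another small subunit, was at 57.0, 43.9, 49.9 and 42.1 CPM in WT, at 67.5, 75.8 and 74.1 CPM in KO22, and at 92.5 and 49.96 CPM in KO26. The highest library was KO26 of batch 8995, KO26 of batch 9262 lay within WT, and only KO22 passed (0.58 ± 0.13, adjusted p = 0.00349). Pcna, the clamp, had a log2 fold change of 2.22 ± 0.22 (adjusted p = 3.36e-05) in KO22 and 0.91 ± 0.26 (adjusted p = 0.0904) in KO26.

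RPA, the heterotrimer that coats exposed single strands, rose in KO22 in 3 of 3 genes and in KO26 in Rpa2. Rpa2 was at 6.32, 6.10, 5.70 and 4.81 CPM in WT, at 24.5, 35.5 and 39.1 CPM in KO22, and at 17.9 and 10.2 CPM in KO26. The groups were separate, with log2 fold changes of 2.51 ± 0.18 (adjusted p = 6.51e-06) in KO22 and 1.28 ± 0.27 (adjusted p = 0.033) in KO26. Rpa3, the smallest subunit, was at 8.94, 7.95, 7.95 and 7.18 CPM in WT, at 8.30, 17.7 and 17.3 CPM in KO22, and at 18.6 and 12.7 CPM in KO26. KO22 of batch 8995 lay inside the WT range although the other KO libraries did not, and KO22 passed with a log2 fold change of 0.82 ± 0.24 (adjusted p = 0.0152).

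Okazaki fragment enzymes rose in both lines. Fen1, the nuclease that trims flaps, was at 6.40, 4.11, 5.40 and 4.95 CPM in WT, at 13.1, 19.2 and 18.2 CPM in KO22, and at 19.1 and 9.48 CPM in KO26. Lig1, the ligase that seals the nicks, was at 15.9, 17.4, 18.4 and 15.2 CPM in WT, at 49.4, 85.7 and 88.0 CPM in KO22, and at 42.5 and 29.5 CPM in KO26. Neither gene overlapped between WT and a KO line, and the fold changes in KO22 and KO26 were 3.21 and 2.61 for Fen1 (adjusted p = 0.000139 and 0.033) and 4.41 and 2.26 for Lig1 (adjusted p = 5.83e-06 and 0.0272).

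Nucleotide supply genes rose in KO22 in 3 of 3 cases and in KO26 in Rrm1 and Tyms. Tyms, the thymidylate synthase, was at 32.7, 26.1, 27.1 and 27.0 CPM in WT, at 75.4, 122.9 and 133.9 CPM in KO22, and at 71.2 and 46.0 CPM in KO26. Rrm1, the large subunit of ribonucleotide reductase, was at 74.5, 70.5, 79.3 and 78.1 CPM in WT, at 112.2, 191.9 and 190.0 CPM in KO22, and at 136.9 and 118.0 CPM in KO26. All KO libraries lay above WT in both genes, by 1.96 ± 0.19 (adjusted p = 2.8e-05) for Tyms and 1.12 ± 0.15 (adjusted p = 0.000193) for Rrm1 in KO22, and by 1.05 ± 0.25 (adjusted p = 0.0455) and 0.82 ± 0.19 (adjusted p = 0.0458) in KO26. Rrm2, the small subunit whose level limits the enzyme outside S phase, had a log2 fold change of 1.88 ± 0.29 (adjusted p = 0.000491) in KO22 and 1.15 ± 0.33 (adjusted p = 0.0864) in KO26.

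**Figure D3:**
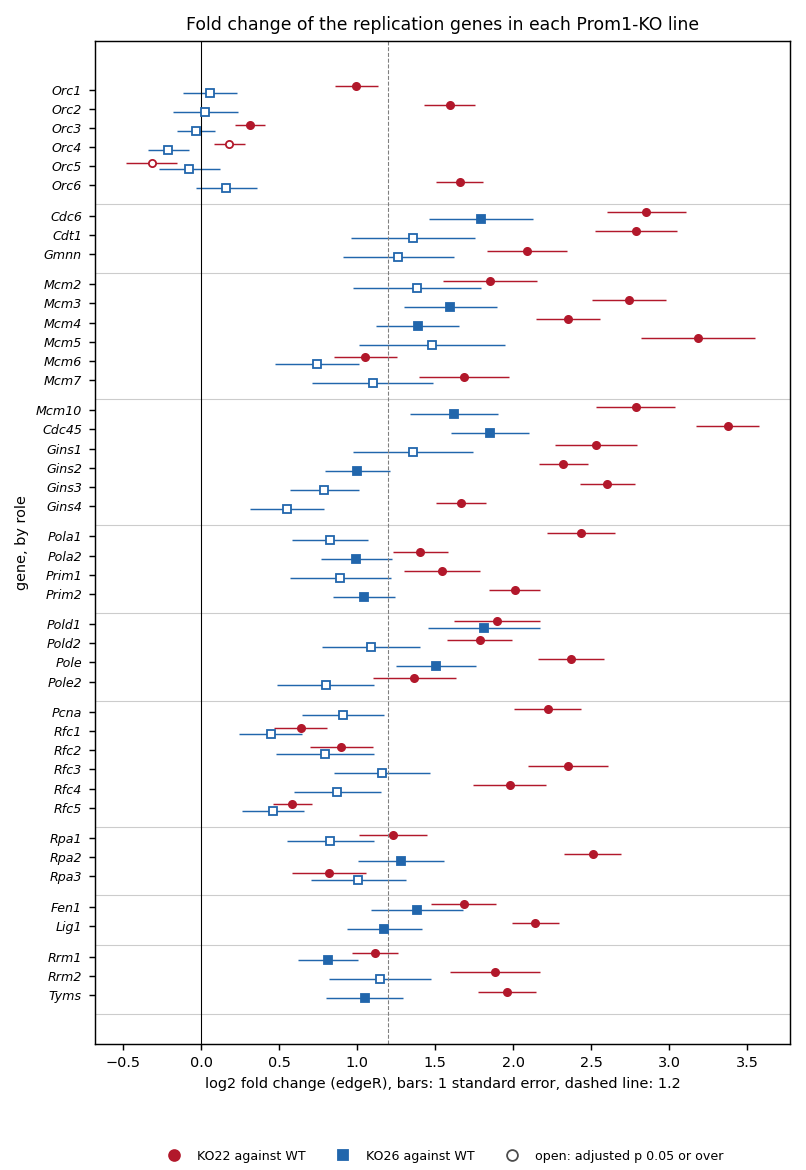
Log2 fold change (edgeR, bars of 1 standard error) of the 43 genes, by role, in KO22 (red circles) and KO26 (blue squares) against WT mRPE, with open symbols where the adjusted p is 0.05 or over and a dashed line at 1.2. Filled symbols stand for 41 genes in KO22 and 15 in KO26, and the KO26 squares of the 6 origin recognition genes lie between -0.21 and 0.16.

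Compared directly, KO22 was higher than KO26 in 24 of the 43 genes at an adjusted p under 0.05, beside 16.3% of 20737 genes, and none was lower, beside 18.1%. Of these, 12 also passed the limit of 1.2, beside 7.56%, and in 24 genes every KO22 library lay above both KO26 libraries, beside 23.4%. The median difference was 0.93 on the log2 scale against 0.00 over all genes. This count leaned on single libraries, with 28 genes past both limits without KO22 replicate 1, 23 without KO26 replicate 1, 7 without KO22 replicate 3 and 4 without KO26 replicate 2.

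The gap between the lines was of different size in the 2 batches. In batch 8995, with 1 library a group and so no test, the median of the 43 genes (on log2 of CPM + 0.5) was 1.04 above WT in KO22 and 1.02 above WT in KO26, or 2.06-fold and 2.02-fold. In batch 9262 it was 2.24 in KO22 and 0.75 in KO26, or 4.74-fold and 1.68-fold. The median of the differences between the lines, gene by gene, was 0.06 in batch 8995 and 1.51 in batch 9262. KO22 exceeded KO26 in 24 of 43 genes in batch 8995 and in 43 of 43 in batch 9262, so 19 genes changed sign, beside 4102 of 20737 genes that went from negative to positive in the same way.

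The KO22 library of batch 8995 lay below the KO22 mean of batch 9262 in 43 of 43 genes, with a median of -0.87 on the log2 scale, where 11725 of all 20737 genes were lower. KO26 went the other way, higher in batch 8995 in 37 of 43 genes with a median of 0.53, beside 10382 of all 20737 genes. WT was higher in batch 8995 in 36 of 43 with a median of 0.24, beside 10210 of all genes. Summed over the 43 genes, WT held 1253 CPM in batch 8995 and 1112 to 1153 CPM in batch 9262. The sum was 2276 CPM in KO22 and 2251 CPM in KO26 of batch 8995, and 4129 and 4239 CPM in KO22 and 1707 CPM in KO26 of batch 9262.

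A term for line by batch was added to the edgeR fit after these values were seen, so it restates them with a spread and is no independent support. Each group has 1 library in batch 8995, so the spread comes from batch 9262 and the libraries of batch 8995 are assumed to vary like those, and a deviation of 1 library cannot be told apart from its batch. On that assumption KO22 against WT was larger in batch 9262 in 39 of 43 genes at an adjusted p under 0.05, beside 17.2% of all genes, with a median difference of 1.2 on the log2 scale against 0.14 over all genes. Mcm5 had the largest difference, at 2.25 ± 0.19, followed by Mcm7 at 1.83, Mcm2 at 1.80 and Rrm2 at 1.80, and the 4 that did not pass were Orc1, Orc3, Orc4 and Gins3. For KO22 against KO26, where KO26 has 1 library in each batch, 38 genes passed, beside 20.4%, with a median of 1.40. For KO26 against WT, 2 genes passed in either direction, beside 2.92%, with Pola1 larger by 0.93 in batch 9262 and Rfc2 smaller, at -0.78. Over all genes, counts of replicate libraries differed far more across the batches (chi-square per degree of freedom 42.6 to 80.1) than within batch 9262 (4.84 to 11.9). How the batches differ is not stated in the sources used here, and its part in these values was not tested.

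**Figure D4:**
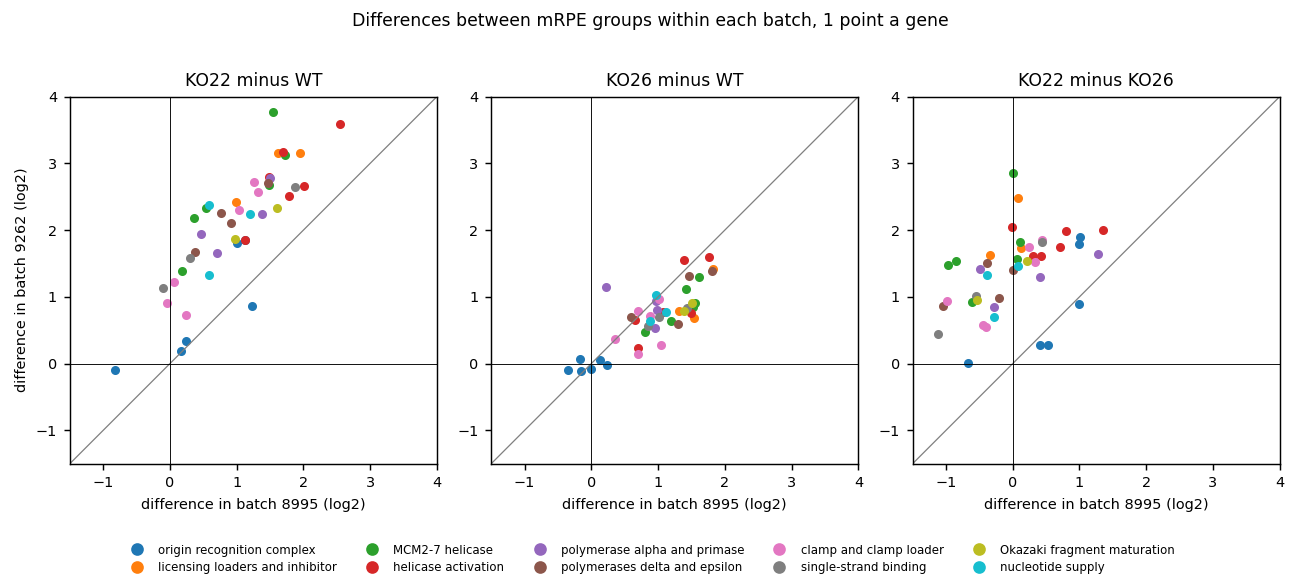
Difference between groups in batch 8995 (x axis) and batch 9262 (y axis), in log2 of CPM + 0.5, 1 point a gene coloured by role, for KO22 minus WT, KO26 minus WT and KO22 minus KO26, with the diagonal of equal differences. For KO22 minus WT 42 of 43 points lie above the diagonal, and for KO22 minus KO26 19 points lie left of 0 in batch 8995 and all are above 0 in batch 9262.

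Other genes of the pathway were counted in the same way. In a list of 42 further replication genes (firing kinases, fork protection, chromatin assembly behind the fork and others), 36 rose in KO22, beside 26.9% of all genes. The median was 1.73, and 2 fell (Pold4, an accessory subunit of polymerase delta, and Rrm2b, the p53-induced ribonucleotide reductase subunit), beside 26.1%. Asf1b, a histone chaperone, had the largest log2 fold change at 4.01 ± 0.27 (adjusted p = 4.09e-06), Dscc1, a subunit of an alternative clamp loader, stood at 2.97 ± 0.33 (adjusted p = 6.84e-05), and Pold4 at -0.92 ± 0.29 (adjusted p = 0.0223). In KO26, 12 of the 42 rose, beside 2.36% of all genes, and none fell, beside 1.13%, with a median of 0.96.

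A list of 14 polymerases, ligases and helicases of repair and translesion synthesis was mixed in KO22, with 5 higher and 5 lower and a median of 0.07. Over all genes tested, 26.9% were higher and 26.1% lower at the same adjusted p, so these counts lie near that background. Its extremes were Polq, polymerase theta of end joining (2.52 ± 0.17, adjusted p = 4.03e-06), Mcm8, a helicase of recombination (2.00 ± 0.17, adjusted p = 1.63e-05), and Rev3l, the catalytic subunit of polymerase zeta (-1.2 ± 0.14, adjusted p = 8.71e-05). In KO26 3 of the 14 rose (Polq, Mcm8 and Polh), beside 2.36% of all genes.

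Genes of G2 and mitosis, which act after replication, rose in KO22 in 17 of 17 cases with a median of 2.13, beside 26.9% of all genes that rose. In KO26 14 of 17 rose with a median of 1.28, beside 2.36% of all genes. Taken by batch, their medians above WT were 1.23 in batch 8995 and 2.49 in batch 9262 for KO22, and of 1.24 and 1.11 for KO26. Mki67, the proliferation marker, was at 375.5, 316.5, 305.6 and 287 CPM in WT, at 764, 1193 and 1169 CPM in KO22, and at 764.5 and 607.1 CPM in KO26, without overlap between WT and either line. Replication genes moved together with mitotic genes in these libraries, and whether the lines differ in the share of dividing cells was not tested.

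Other values moved with KO22 as well. As CPM of the counts outside mitochondrially encoded genes, the 4 fibroblast markers in the table summed to 4824 to 6692 in KO22, 14660 to 16530 in WT and 16300 to 22170 in KO26, where Col1a1, Col1a2 and Pdgfra fell in KO22 and Dcn did not pass. The 5 endothelial markers in the table summed to 4.10 to 6.28, 195 to 275 and 69.7 to 80.0 on the same scale and in the same order. In WT and KO26 nearly all of that sum was Kdr, a receptor for VEGF, which fell in KO22. Tek also fell, Plvap rose, Pecam1 and Vwf did not pass, and Cdh5, Tie1 and Emcn were not in the mRPE table. The part of either list in the result was not tested. Chromosome medians of the KO22 fold change ran from -0.54 to 0.60, and with each member taken relative to its own chromosome the median of the 43 was 2.06, with 34 of them over 1.2.

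In RPE/choroid the replication genes were expressed at a lower level and did not pass the test between groups. The 43 genes summed to 203 to 221 CPM in WT and 227 to 245 CPM in tissue labelled Prom1-KO, and to 0.0735% to 0.0836% and 0.0755% to 0.0863% of the counts outside mitochondrially encoded genes. In WT mRPE they took 0.146% to 0.151% of such counts. As CPM of the counts outside mitochondrially encoded genes, 39 of 43 genes were higher in WT mRPE than in WT RPE/choroid, with a median ratio of 2.19, where 10820 of 19293 genes were higher and the median ratio was 1.13. In 36 genes all 4 mRPE libraries exceeded all 3 tissue libraries, beside 36.3% of all 19293 genes, and in 1, Lig1 (ratio 0.754), all were below, beside 27.7%. Rrm2 had the largest ratio, 13.5, with a CPM outside these genes of 50.6 ± 7.55 (SD, n = 4) in mRPE against 3.74 ± 0.361 (SD, n = 3) in tissue, and Mcm6 had 5.28. Orc4, Rfc5 and Rpa2 were level or slightly lower in mRPE (ratios 0.843, 0.999 and 0.901). The tables were made separately and the samples differ in cell type, so these ratios have no test.

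Between tissue groups, 0 of the 43 genes passed by edgeR in either direction, at both limits or at the adjusted p alone, beside 0% of 24926 genes that were higher (0% also at both limits) and 0.189% that were lower at both limits. DESeq2 gave 0 as well, and so did edgeR without the third library labelled Prom1-KO. At an unadjusted p under 0.05 by edgeR, 4 genes were higher (Prim1, Pcna, Lig1 and Mcm3), beside 3.98% of all genes, and the smallest adjusted p of the 43 was 0.324. The direction was mostly upward, with 39 of 43 log2 fold changes positive, beside 12913 of all 24926 genes. The median was 0.20, against 0.01 over all genes. In 8 genes all libraries labelled Prom1-KO lay above all WT, beside 6.71% of all genes. Prim1, the catalytic primase subunit, was at 3.35, 3.20 and 3.63 CPM in WT and at 4.52, 5.16 and 5.04 CPM in the libraries labelled Prom1-KO (log2 0.53 ± 0.14, adjusted p = 0.324). Pcna was at 11.9, 9.95 and 9.97 CPM in WT and at 13.4, 13.4 and 13.3 CPM in the other group (0.33 ± 0.13, adjusted p = 0.546). Neither gene overlapped between the groups, while 35 of the 43 did.

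Standard errors ran from 0.12 to 0.47 in tissue, where a change in RPE alone would be averaged with the other cells. The fold changes of KO22 are therefore no measure of what could have been detected here, and changes may have been missed. Marker sums of the tissue groups, as CPM of the counts outside mitochondrially encoded genes, were as follows. RPE markers summed to 9461 to 12860 in WT and 3925 to 5328 in tissue labelled Prom1-KO, and 10 of the 12 had a negative log2 fold change. By edgeR 3 fell (Rpe65, Lrat and Rgr) and 9 did not pass. Of these 9, Ttr (-3.015, adjusted p = 0.0709), Rlbp1 (-2.07, adjusted p = 0.0929) and Mitf (-0.82, adjusted p = 0.0815) had large negative values. Tyr, Tyrp1, Dct and Pmel, also among the 9, ran from -0.156 to 0.37. Endothelial markers summed to 373 to 760 and 212 to 341, with none of 8 past the test. All 8 had a negative log2 fold change (median -0.90), beside 12013 of all 24926 genes, and 7 had an unadjusted p under 0.05 by edgeR. The sums of photoreceptor markers (151 to 4454 and 64.2 to 2125), of fibroblast markers (3224 to 7062 and 2887 to 5563) and of macrophage and leukocyte markers (313 to 381 and 317 to 357, with Cd79a not in the table) overlapped between the groups, and none of their members passed. Their part in the small upward shift was not tested. Mki67 ran from 26.9 to 47.6 CPM in WT and from 38.1 to 60.3 CPM in the other group, which overlapped.

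**Figure D5:**
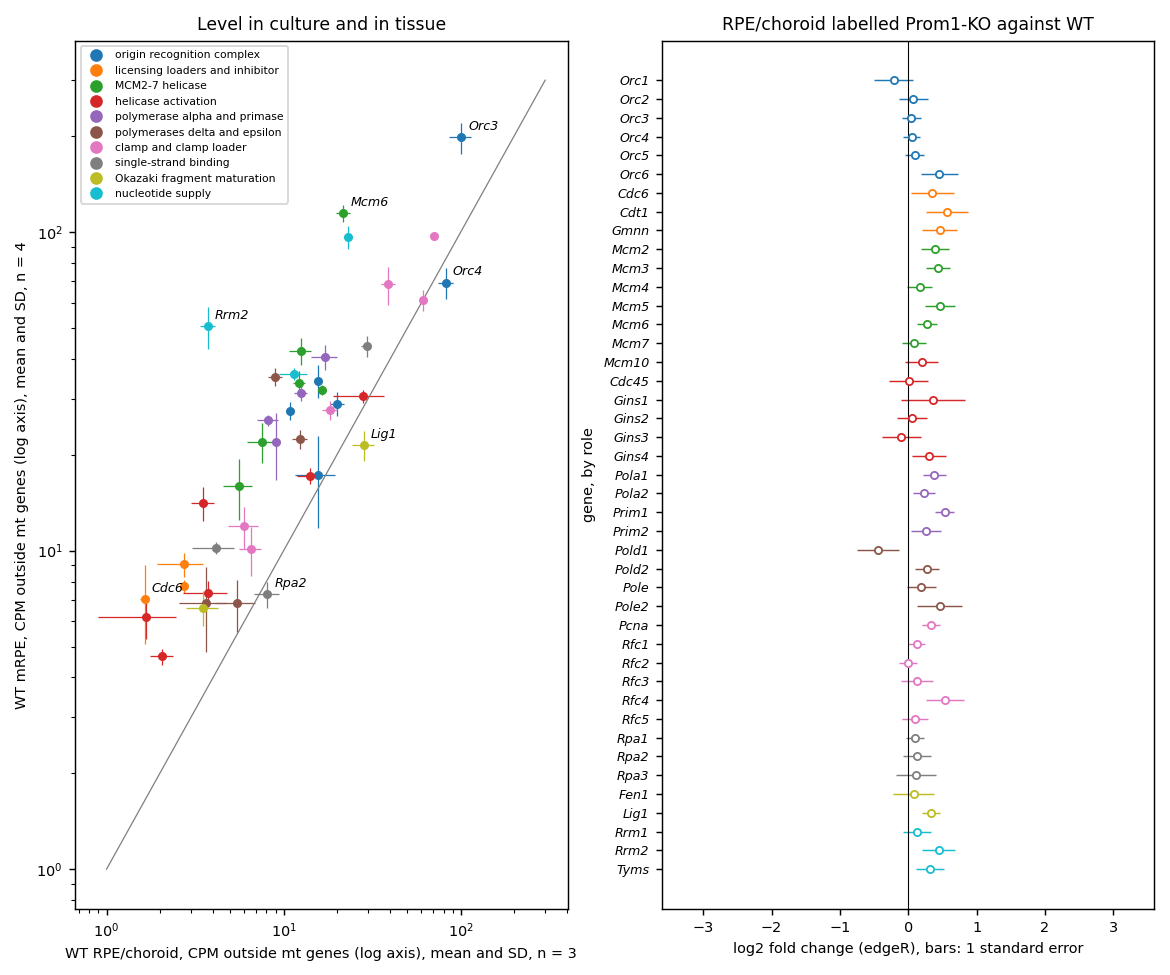
Left, mean level of each of the 43 genes (CPM outside mitochondrially encoded genes, log axes, bars of 1 SD) in 3 WT RPE/choroid libraries (x axis) and 4 WT mRPE libraries (y axis), with the line of equal levels. Right, log2 fold change (edgeR, bars of 1 standard error) of the same genes in RPE/choroid labelled Prom1-KO against WT, all open since none passed, with 39 of 43 right of 0.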

How the data were processed

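Poly(A) RNA-seq was available for 9 mRPE and 6 RPE/choroid libraries. Per the labels and the study's methods, the authors trimmed reads with Trim Galore 0.6.7, aligned them to mm39 with STAR, and deposited raw counts per gene, 1 table for mRPE and 1 for RPE/choroid. The deposited normalized tables hold a signal, the counts divided by a size factor per library, and were not used. The labels name an NEB stranded kit and the methods a TruSeq stranded kit, so the kit is uncertain.

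Libraries were grouped by their labels, and no column was left unmatched. Genes that reached 5 counts in 3 or more libraries were tested over the whole table with edgeR 4.0.16 in R 4.3.3 (TMM, quasi-likelihood F-test, Benjamini-Hochberg over all genes), with the batch as a term for mRPE. KO22 was compared with WT over 7 libraries, and KO26 with WT and with KO22 in 1 fit over 9, which shares the spread, since KO26 has 2 libraries. Each standard error was taken from the size of the log2 fold change over the root of its F value. CPM uses TMM library sizes, and differences within a batch use log2 of CPM + 0.5. The code was tested on simulated data. Alternatives used DESeq2 1.42.0 (size factors or its own test), other filters, a different limit, no batch term, batch 9262 alone, and leaving out each library.

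The members and the other gene lists were chosen with earlier results of these data known. Named with values in every library are, for each role, the member with the largest and the smallest fold change in KO22, members at an adjusted p under 0.05 in KO26, and members against the common sign. Of the further replication genes and of the repair list, the 2 largest and the smallest are named. Of the genes of G2 and mitosis only Mki67 is named, as a check, and cell type markers serve to check the cells and tissue. Other genes named beyond these rules (Orc1 to Orc4, Cdt1, Pcna, Rfc2, Rrm2, Mcm2, Mcm7, Rrm2b, Polh, and Prim1 and Pcna in tissue) were chosen after their values were seen. Reads of a gene and an overlapping gene may be shared, which was not tested.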

Additional observations from a re-analysis of the deposited data

Results flagged for a closer look

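In WT mRPE, 3 of the 43 genes had a library that stood apart from the other 3 by Dixon's test at its 95% critical value, each time replicate 1, of batch 8995. Mcm7 was at 41.0 CPM there against 29.7 to 31.6 CPM in the others, Pole2 at 8.46 against 4.16 to 4.87 CPM, and Tyms at 32.7 against 26.1 to 27.1 CPM. Chance sets about 1 in 20 groups apart in this way. Since that library is the only WT library of its batch, the batch and the library cannot be told apart.

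The lines differed in 24 of the 43 genes, all higher in KO22 than in KO26, at an adjusted p under 0.05 by edgeR. By an edgeR term for line by batch, added after the batch values were seen, KO22 against WT was larger in batch 9262 in 39 of the 43 genes, and KO22 against KO26 in 38. Each group has 1 library in batch 8995, so this term borrows its spread from batch 9262, and the batch and the single library cannot be told apart.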

How the results depend on the processing

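The counts of genes past both limits and the medians kept their direction under every alternative that was run, and no single-gene fold change past the test changed sign. For KO22 against WT the count was 31 to 36 with each library left out in turn, and the median was 1.66 to 2.28 (2.27 in batch 9262 alone). For KO26 against WT, DESeq2 called 14 genes and the adjusted p alone 15, where 9 passed both limits. With each library left out the count ran from 0 (without KO26 replicate 1) through 1 (without WT replicate 2, 3 or 4) to 20 (without KO26 replicate 2), and the median from 0.61 to 1.416. For KO22 against KO26 the adjusted p alone gave 24 genes and batch 9262 alone 28, with a median of 1.51, where 12 passed both limits. With each library left out the count ran from 4 (without KO26 replicate 2) and 7 (without KO22 replicate 3) to 23 (without KO26 replicate 1) and 28 (without KO22 replicate 1), and the median from 0.50 to 1.37. The cause was not tested. In RPE/choroid the count was 0 throughout and the median 0.19 to 0.23. Fits that leave KO26 with 1 library assume that it varies like the other groups. No paired analysis was possible because the replicate numbers were given in accession order and pair no samples. Every member had at least 16 counts in every library. How far low counts and the spread between libraries each limit the precision was not tested.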
